A study of Saccharomyces cerevisiae with 12 samples.

Results

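The genes described here are the 316 annotated rows that lie wholly within 20 kb of a chromosome end in Saccharomyces cerevisiae, out of 7126 rows with an expression value. For each of the 16 nuclear chromosomes the smallest and the largest coordinate among the rows served as the ends, and 10 rows inside this width (among them the silent mating-type genes HMLALPHA1 and HMLALPHA2 and the acid phosphatases PHO11 and PHO12) were left out of the set. The comparison set was the other 6745 nuclear rows. RNA was sequenced from MATa cells (strain MP 384) and from MATα-playing-a cells (strain LBHY29), in 4 groups of 3 biological replicates: each strain without pheromone, and each strain after 2 h with 10 nM α-factor. Every culture grew in log phase in YPD with 0.1% BSA at 30 °C, and the treated sample was what was left of the culture once the untreated one had been taken. None of the 4 groups was kept for the same 2 h without α-factor, so α-factor and the added time in culture cannot be told apart. α-Factor is the peptide by which α cells arrest a cells and prepare them for mating. The labels give no alleles for either strain. STE2, the α-factor receptor, was expressed in both, at 3254 to 4169 FPKM in unstimulated MATa cells and 512 to 633 FPKM in unstimulated MATα-playing-a cells. FIG1, a gene that mating pheromone switches on, rose from 17.4 ± 5.32 to 10661 ± 789 FPKM in MATa and from 12.3 ± 1.38 to 11125 ± 759.9 FPKM in MATα-playing-a cells (mean ± SD, n = 3 libraries).

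Yeast chromosomes end in repeats of short C-rich units, followed inward by X and Y′ elements and then by the subtelomeric genes. Near the end, the Sir proteins, recruited by Rap1 and opposed by boundary factors, can spread along nucleosomes and keep genes silent. Subtelomeres are also known for gene families that were copied from end to end, such as the COS, PAU, THI5, MAL and Y′ helicase (YRF1) genes, many of them serving growth on unusual carbon sources or under stress. The kind of sequence that lies outside all of these rows is shown by the left end of chromosome XV in the RefSeq R64 assembly (chrXV:1-120, plus strand), where the capitals mark runs of units of 1 to 3 C followed by A.
left end of chromosome XV: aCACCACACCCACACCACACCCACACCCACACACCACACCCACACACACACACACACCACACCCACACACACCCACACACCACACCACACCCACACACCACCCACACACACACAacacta
The outermost rows began 52 to 3527 nt from the R64 ends (median 462.5 nt), so distances here are a little shorter than those to the telomere itself. Coordinates of 236 members equal those of the R64 annotation, 3 differ from it and 77 members have no locus tag there. Each of the 32 ends held 5 to 14 members, with a median length of 594 nt against 1035 nt for the other genes. By the rule, the innermost members were YPR195C (far edge 19737 nt from the end, mean 97.4 FPKM) and FDC1 (19618 nt, 433.8 FPKM), and the first genes outside were ERG13 (20075 nt, 2740 FPKM) and TOG1 (20230 nt, 82.5 FPKM).

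Genes near chromosome ends gave little RNA. The median member read 23.3 to 34.5 FPKM (fragments scaled to transcript length and to library size) across the 12 libraries, against 200.6 to 206.3 FPKM for the median of the other nuclear genes. On the log2(FPKM + 1) scale the medians differed by -2.78 ± 0.15 (mean and SD over 12 libraries), and the difference was negative in every library, from -3.05 to -2.52. It had the same sign without pheromone and with it, in both strains. Of the 316 members, 53 were listed at 0 in all 12 libraries, which is 16.8%, against 379 of 6745 other genes (5.62%). A mean of at least 100 FPKM was reached by 24.4% of the members and 71.7% of the others, and of at least 1000 FPKM by 4 members and 920 others.

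Much of this sequence exists in several copies, and the values of such rows depend on how the authors' software shared reads among copies. Counting the 50-nt words of each row that occur once in the R64 genome, 114 of 315 members (36.2%) were at least 90% unique, against 95.8% of the other genes, and 98 members (31.1%) were under 10% unique, against 1.86%. Members of at least 90% unique sequence had a median of 102 FPKM and those under 10% a median of 7.81 FPKM. Among the other genes the unique ones had a median of 235 FPKM and those under 10% unique a median of 25.5 FPKM. The log2 difference in level was -1.09 over unique members alone, a setting added after the data had been seen. Of the 53 members at 0 in all libraries, 14 were at least 90% unique, 22 were under 10% unique and 36 have no R64 locus tag. In 8 sets, 17 members in all, rows carried equal values in every library, among them COS2 with COS3 and ERR1 with ERR2. These are not separate measurements.

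The level rose stepwise with distance from the end, as the plot of levels by distance shows. Rows whose far edge lay within 5 kb had a median of 12.6 FPKM, those at 5 to 10 kb 21.9 FPKM, at 10 to 15 kb 38.0 FPKM and at 15 to 20 kb 83.3 FPKM. Outside the set the medians were 112 FPKM at 20 to 30 kb, 205 FPKM at 30 to 50 kb and 217 FPKM further in. The share of rows listed at 0 in all libraries went from 32.9% in the outermost 5 kb over 20.5% and 6.49% to 3.03% at 15 to 20 kb. The median share of unique sequence moved the same way, from 12.3% over 41.5% and 53.0% to 100%. Its part in the levels was not tested. Among rows of at least 90% unique sequence the medians were 72.3 FPKM at 5 to 10 kb (26 rows), 114 FPKM at 10 to 15 kb (32 rows), 161 FPKM at 15 to 20 kb (46 rows), 155 FPKM at 20 to 30 kb, 212 FPKM at 30 to 50 kb and 238 FPKM beyond, and 0 in the outermost 5 kb, where only 10 such rows lie.

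**Figure D1:**
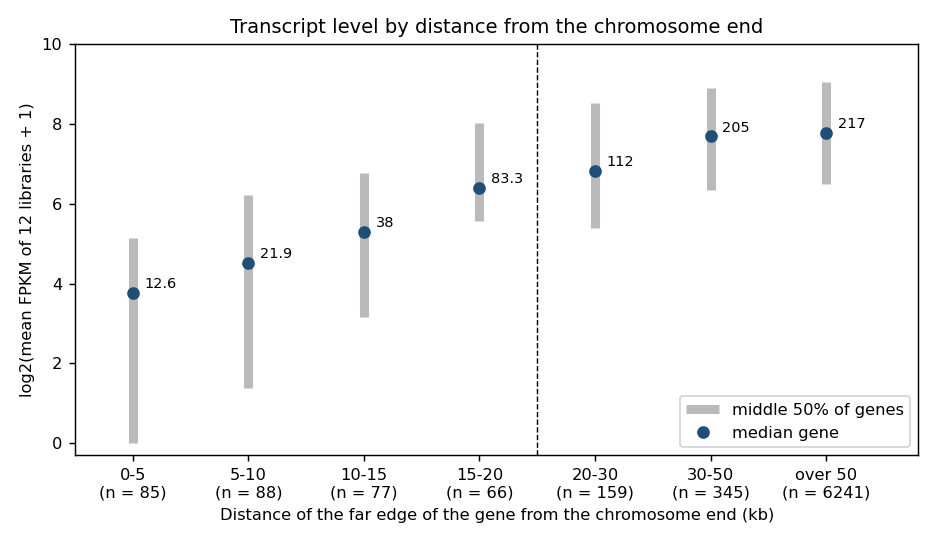
Mean FPKM over the 12 libraries, on a log2(FPKM + 1) axis, for genes grouped by the distance of their far edge from the chromosome end in kb, with the median printed beside each point and grey bars for the middle 50% of genes. Medians climb from 12.6 FPKM in the outermost 5 kb to 83.3 FPKM at 15 to 20 kb; the dashed line is the inner edge of the set, and genes over 50 kb away have a median of 217 FPKM.

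After α-factor the genes near the ends, as a set, moved up more often than down. At the deposited scaling the genome as a whole moved down more often than up. A gene was called when its limma adjusted p (Benjamini-Hochberg over all 6608 genes with a mean of at least 1 FPKM) was below 0.05, and 254 of the 316 members passed that filter on low values. In MATa cells 126 of these 254 were called, 90 higher and 36 lower; over all tested genes 66.6% were called, 28.5% higher and 38.1% lower. In MATα-playing-a cells 131 were called, 93 higher and 38 lower, against 68.9% of all tested genes, 29.8% higher and 39.1% lower. Called changes of at least 2-fold numbered 46 up (18.1%) and 11 down (4.33%) in MATa, against 9.78% and 7.55% of all tested genes. In MATα-playing-a cells they numbered 54 up (21.3%) and 11 down (4.33%), against 11.2% and 7.55%. Among the 71 tested members that overlap another row, 9 were higher and 11 lower in MATa, and 9 and 15 in MATα-playing-a cells. Among the 183 that overlap none, these counts were 81 and 25, and 84 and 23. Other overlapping genes, 1237 tested, had 301 higher and 440 lower in MATa, and 325 and 468 in MATα-playing-a cells. Members without an R64 locus tag, 39 tested, had 4 and 6, and 5 and 4. The median log2 change of the 254 was 0.23 in MATa and 0.26 in MATα-playing-a cells, against -0.09 and -0.10 over all tested genes. Over all 316 members, without a filter, the medians were 0.02 and 0.05, since 58 and 54 of them had a change of exactly 0. Median-ratio rescaling brings the median change near 0 by construction, and the medians over all tested genes were then -0.005 and -0.004. After quantile normalisation they were -0.08 and -0.10. Whether the genome's median fell thus rests on the scaling chosen. Replicates were separate biological samples by their labels, and the p-values measure the spread between these libraries. Libraries of whole cultures cannot tell fewer cells expressing a gene from less RNA per cell.

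Of the called members 82 were higher in both strains and 24 lower in both, and none was called in opposite directions; the 82 are 91.1% of those higher in MATa and 88.2% of those higher in MATα-playing-a cells, and over all tested genes these shares were 88.2% and 84.4%. The 24 are 66.7% of the members lower in MATa and 63.2% of those lower in MATα-playing-a cells, against 87.5% and 85.3% over all tested genes. Across the 254 members the 2 responses had a Pearson correlation of 0.77, against 0.87 across all tested genes, as a description over genes, which are not independent replicates. Leaving out each library in turn kept the call of 105 of the 126 members in MATa and of 106 of the 131 in MATα-playing-a cells in all 12 fits. The total called ranged from 110 to 128 and from 117 to 135.

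**Figure D2:**
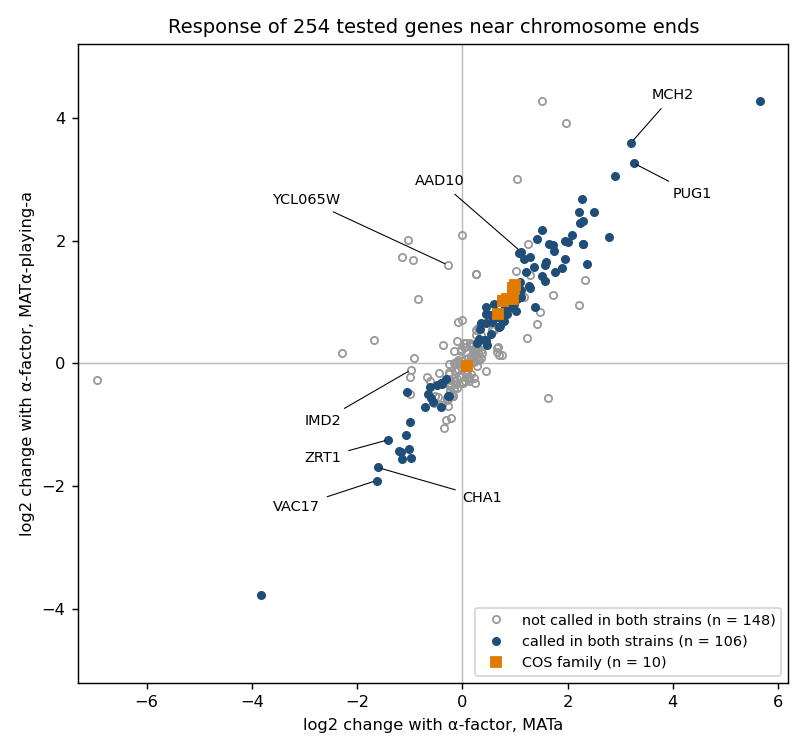
Each point is 1 of the 254 tested members, placed by its log2 change with α-factor in MATa (x) and MATα-playing-a cells (y) on the log2(FPKM + 1) scale; filled blue points passed the test in both strains and orange squares are the COS family. The 106 members called in both strains lie in the upper right or lower left, IMD2 lies near 0 for MATα-playing-a cells alone, and 9 of the 10 COS genes form one tight group.

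The direction of the response also varied with distance. In MATa cells the share of tested rows called higher was 11.5% within 5 kb, 32.4% at 5 to 10 kb, 38.6% at 10 to 15 kb and 54.7% at 15 to 20 kb, then 40.4% at 20 to 30 kb, 29.2% at 30 to 50 kb and 27.8% beyond. The share called lower was 19.2%, 11.8%, 12.9% and 14.1% in the 4 outer classes and 25.2%, 38.1% and 39.5% in the 3 inner ones. MATα-playing-a cells gave 15.4%, 30.9%, 42.9% and 53.1% higher in the outer classes, and 28.8% lower in the outermost. Rises thus peaked at 15 to 20 kb in both strains, and the outermost 5 kb was the only class of the 4 with more falls than rises. With rows of at least 90% unique sequence alone, 59.1% were called higher at 15 to 20 kb in each strain, against 28.1% and 29.1% beyond 50 kb. In the outermost 5 kb only 4 such rows were tested, too few to show a direction. There 0 were higher and 1 lower in MATa, and 1 and 0 in MATα-playing-a cells. Other genes under 10% unique, 98 tested, also had more rises than falls, 37 and 15 in MATa and 44 and 18 in MATα-playing-a cells. Members under 10% unique, 72 tested, had 13 and 2, and 12 and 8. Split by level, among genes with a mean of 100 to 1000 FPKM, 49.3% of 73 members and 29.0% of 3915 other genes were higher in MATa, and 57.5% and 30.1% in MATα-playing-a cells. Among genes of 10 to 100 FPKM the shares were 29.9% and 29.5% in MATa and 27.6% and 28.4% in MATα-playing-a cells. There 9.7% of the 134 tested members and 26.9% of other genes were lower in MATa, and 16.4% and 30.5% in MATα-playing-a cells. These shares are descriptions and were not tested.

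**Figure D3:**
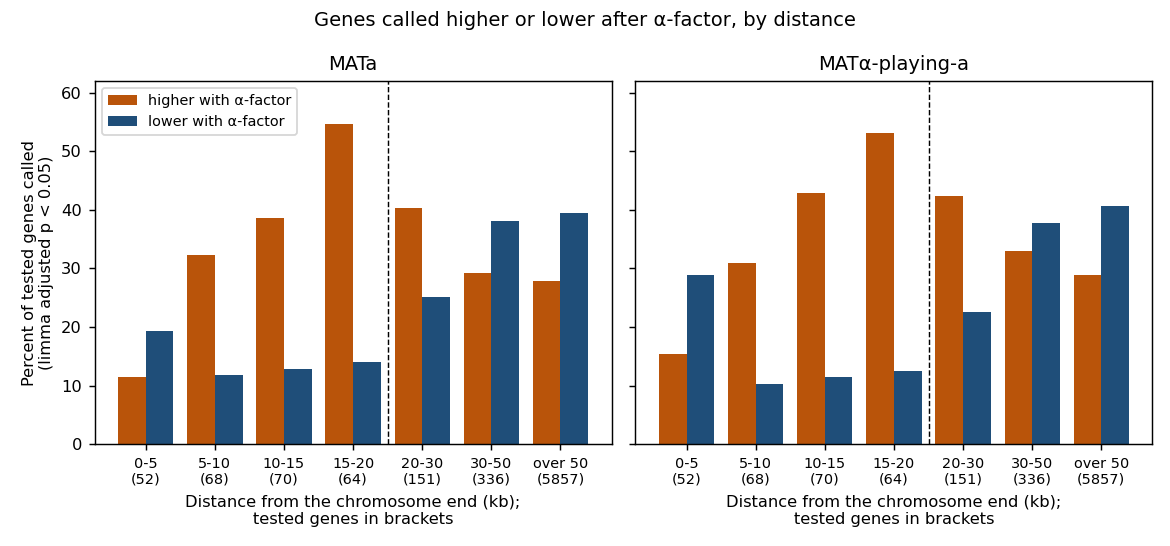
Percent of tested genes called higher (orange) or lower (blue) after α-factor (limma adjusted p below 0.05) by distance from the chromosome end in kb, for MATa (left) and MATα-playing-a cells (right), with the number of tested genes in brackets. At 15 to 20 kb 54.7% and 53.1% were higher, while beyond 50 kb the lower genes outnumber the higher ones.

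Among the strongest risers were several genes for membrane transporters. MCH2 (YKL221W, chrXI:6107-7528), a relative of monocarboxylate permeases, read 17.4, 14.4 and 13.7 FPKM in unstimulated MATa and 154, 163 and 128 FPKM with α-factor. The MATα-playing-a libraries gave 18.6, 20.2 and 20.3 FPKM and then 270.0, 238 and 238 FPKM. The treated libraries of both strains lay far above the untreated ones, without overlap, at log2 changes of 3.21 ± 0.12 (SE, limma adjusted p = 1.61e-09) and 3.59 ± 0.12 (limma adjusted p = 5.91e-10). PUG1 (YER185W, chrV:559454-560365), a plasma membrane protein of porphyrin and heme transport, went from 22.7, 20.5 and 29.9 to 231, 257 and 229.8 FPKM in MATa. MATα-playing-a cells gave 22.0, 32.8 and 21.9 FPKM before and 256, 216 and 278 FPKM after. All treated libraries were high in both strains and the fold was 9.56 and 9.58 (limma adjusted p = 3.20e-08 and 2.95e-08). SEO1 (YAL067C, chrI:7235-9016), a permease of the allantoate transporter family, stood at 43.2, 30.5 and 34.9 FPKM in untreated MATa, at 185, 166 and 164 FPKM in treated MATa, at 44.8, 43.0 and 40.7 FPKM in untreated MATα-playing-a and at 233, 247 and 245 FPKM in treated MATα-playing-a libraries. It rose 4.68-fold and 5.54-fold with no overlap. The neighbouring open reading frames YOL163W and YOL162W at the left end of chromosome XV, both similar to that same permease family, rose 5.7- and 4.82-fold in MATa and 5.54- and 6.41-fold in MATα-playing-a cells (highest limma adjusted p of the 4 = 7.88e-07). Of the 5 members on the permease list, which are SEO1, AGP3, GIT1, VBA3 and VBA5, 3 were higher in MATa with 1 lower, and 2 were higher in MATα-playing-a cells with 1 lower. The lower one in MATa was VBA5 (limma adjusted p = 0.0427), not called without MATa unstimulated replicate 2 or 3, MATa stimulated replicate 1 or 3, MATα-playing-a unstimulated replicate 2 or its stimulated replicate 1 (0.0538 to 0.153). The lower one in MATα-playing-a cells was VBA3 (limma adjusted p = 0.0255), not called without MATα-playing-a unstimulated replicate 1 or 2 or stimulated replicate 3 (0.0599 to 0.0901) or after median-ratio rescaling (0.0884). GIT1, higher in MATa (limma adjusted p = 0.0123), was not called without MATa unstimulated replicate 3 or stimulated replicate 2 (0.0540 to 0.0547), after quantile normalisation (0.0691) or with the compared libraries alone (0.0519).

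MSC1 (YML128C, chrXIII:15135-16676, minus strand), named for its mutants' altered choice of partner in meiotic recombination, rose in both strains. It read 82.2, 79.5 and 99.0 FPKM in unstimulated MATa, then 404, 460.1 and 418 FPKM with α-factor. The MATα-playing-a libraries read 90.1, 94.4 and 76.6 FPKM and 398, 498 and 413 FPKM. Groups did not overlap, and the folds were 4.89 and 4.96 (limma adjusted p = 2.11e-08 and 1.82e-08). Its upstream sequence (R64, chrXIII:16627-16926, minus strand, 250 bases before the start codon and 50 bases from it on) is shown because it carries the element of 5 letters, AGGGG, to which the stress factors Msn2 and Msn4 bind; capitals mark its matches.
MSC1: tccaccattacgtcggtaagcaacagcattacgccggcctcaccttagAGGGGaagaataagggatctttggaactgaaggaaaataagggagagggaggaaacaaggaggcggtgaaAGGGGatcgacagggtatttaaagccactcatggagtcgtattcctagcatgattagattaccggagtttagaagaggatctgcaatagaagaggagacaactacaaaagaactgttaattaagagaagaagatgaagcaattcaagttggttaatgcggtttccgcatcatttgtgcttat
AGGGG on either strand occurred in 21.6% of the 6001 promoters of that length in the genome, in 20.9% of 230 members' promoters, in 32.1% of the 78 members called higher in both strains and in 9.52% of the 21 called lower in both. Over all genes the shares were 34.3% of 1564 higher in both and 14.3% of 2026 lower in both. TGAAACA, the element bound by the pheromone-activated factor Ste12, occurred on either strand in 7.50% of all promoters, 5.65% of the members' and 2 of the 78 members higher in both. ACGCGT, the MCB element of G1/S genes, stood in 3.07% of all promoters and 2 members' promoters. A match is a description of letters in this window and not a bound site.

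SRY1 (YKL218C, chrXI:17359-18339), a 3-hydroxyaspartate dehydratase, rose 4.7-fold in MATa, from 149.7 ± 8.98 to 710.0 ± 87.8 FPKM, and 4.89-fold in MATα-playing-a cells, from 147 ± 7.21 to 729 ± 99.5 FPKM (mean ± SD, n = 3; limma adjusted p = 1.69e-08 and 1.31e-08). YFR052C-A (chrVI:253429-253734) went from 64.5, 92.9 and 57.6 to 431, 561 and 479.8 FPKM in MATa, but its row overlaps that of the hexokinase gene HXK1. Without strand information, reads of such partners cannot be told apart. YGL258W-A was listed at 0 wherever no pheromone had been given, and read 15.5, 22.8 and 17.4 FPKM in treated MATα-playing-a cells (limma adjusted p = 0.00348), with 0, 0 and 22.5 FPKM in treated MATa cells, where the test was not passed (limma adjusted p = 0.222). PXP3 read 0, 0 and 9.86 FPKM and then 20.5, 16.5 and 15.6 FPKM in MATα-playing-a cells. Its limma adjusted p of 0.0363 rose to between 0.0689 and 0.118 without MATα-playing-a unstimulated replicate 1 or 2 or any 1 stimulated MATα-playing-a replicate.

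Fewer members fell, among them genes of vacuole inheritance, serine breakdown, zinc uptake and fluoride export. VAC17 (YCL063W, chrIII:17290-18561), the adaptor that ties the vacuole to the myosin carrying it into the bud, read 244, 279 and 319.8 FPKM in unstimulated MATa and 85.8, 82.7 and 101 FPKM with α-factor. MATα-playing-a cells gave 256, 336 and 330.2 FPKM and 85.8, 71.5 and 85.3 FPKM. Every treated library was below every untreated one, by 3.1- and 3.75-fold (limma adjusted p = 9.89e-07 and 2.90e-07). Next to it, CHA1 (YCL064C, chrIII:15798-16880), the catabolic serine and threonine deaminase, read 968, 1376 and 989 FPKM in untreated and 344, 356 and 374 FPKM in treated MATa libraries. The MATα-playing-a values were 1118, 1438 and 1461 FPKM and 404, 432 and 395 FPKM. The fall was 3.06- and 3.23-fold with no overlap (limma adjusted p = 1.14e-06 and 7.74e-07). ZRT1 (YGL255W, chrVII:20978-22108), the high-affinity zinc transporter, went from 609.8, 728 and 703 to 253, 264 and 250.4 FPKM in MATa and from 568, 872 and 711 to 269, 372 and 264 FPKM in MATα-playing-a cells. Untreated and treated libraries did not overlap, and the log2 changes were -1.40 ± 0.16 and -1.24 ± 0.16 (limma adjusted p = 1.19e-05 and 3.04e-05). The fluoride exporter genes FEX1 and FEX2 lie at the ends of chromosomes XV and XVI and are 20.6% unique, so their reads were shared. FEX1 fell 2.3-fold in MATa, from 152 ± 14.8 to 65.7 ± 5.41 FPKM, and 2.69-fold in MATα-playing-a cells, while FEX2 fell 2.23- and 2.72-fold.

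The largest fitted fall among called members of at least 200 nt was that of YMR320W (chrXIII:916746-917051), an open reading frame of unknown function. It read 30.4, 26.3 and 51.6 FPKM and then 0, 0 and 14.9 FPKM in MATa, and 23.9, 40.6 and 42.0 FPKM and then 0, 16.7 and 0 FPKM in MATα-playing-a cells. Treated libraries were mostly listed at 0 and lay below the untreated ones, at limma adjusted p = 0.0144 and 0.0151. The MATa call was lost without MATa unstimulated replicate 3 or stimulated replicate 1 or 2 (limma adjusted p = 0.0528 to 0.0590), and the MATα-playing-a call without its stimulated replicate 1 or 3 (0.0631 to 0.0638). YBR300C with PAU24, and YGR293C with PAU12, are pairs of overlapping rows that fell together. In MATa they fell 2.21-, 1.97-, 2.11- and 2.01-fold, and in MATα-playing-a cells 2.93-, 2.9-, 2.25- and 2.63-fold, from levels of 15.4 to 30.7 FPKM in untreated cells.

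**Figure D4:**
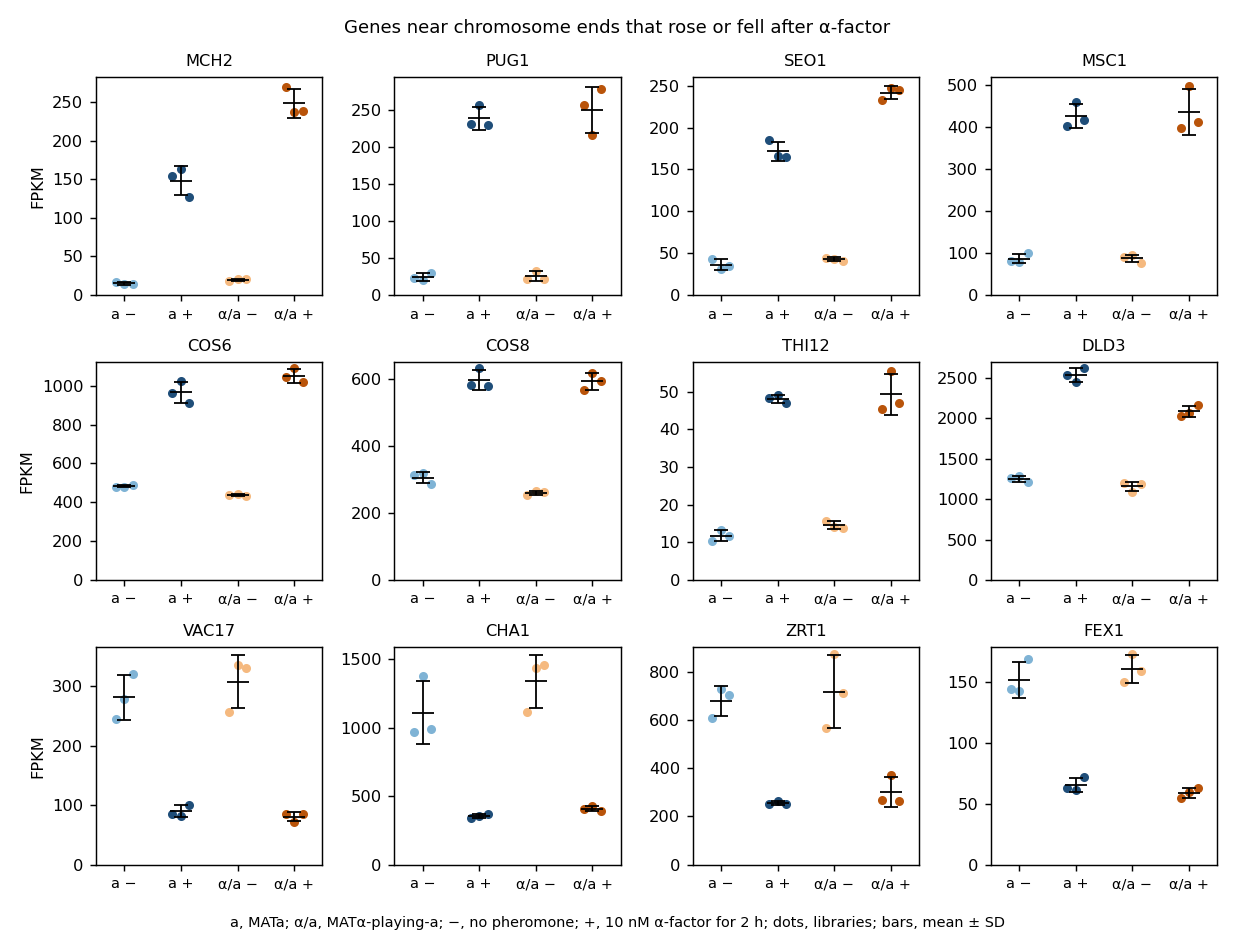
FPKM on linear axes from 0 in each library (dots) with mean ± SD of 3 (black) for 12 members in MATa (a) and MATα-playing-a (α/a) cells without (−) and with (+) 10 nM α-factor for 2 h. MCH2, PUG1, SEO1, MSC1, COS6, COS8, THI12 and DLD3 are higher in all treated libraries of both strains; VAC17, CHA1, ZRT1 and FEX1 are lower in all of them.

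The COS genes rose almost as a block. COS proteins are membrane proteins that help sort other membrane proteins into the vacuole through multivesicular bodies. Of 11 COS members 10 were tested, and 9 of these, COS1 to COS9, were higher in both strains, by 1.61- to 2.00-fold in MATa (highest limma adjusted p = 6.63e-06) and 1.75- to 2.41-fold in MATα-playing-a cells (highest limma adjusted p = 1.04e-06). COS1 to COS9 are 0 to 99.1% unique. Of the 11 members 2 are under 10% and 3 at least 90% unique. Reads of the other copies were partly shared, so the 9 rises are not 9 separate measurements. COS6 (YGR295C, chrVII:1081584-1082729) had the highest level of the family. It read 480.4, 479 and 487 FPKM in untreated and 963, 1022 and 912 FPKM in treated MATa, and 435, 440.5 and 431 FPKM and 1048, 1090 and 1018 FPKM in MATα-playing-a libraries. Treated and untreated libraries were clearly apart. COS8 (YHL048W, chrVIII:6401-7546), 82.6% unique, read 313, 318 and 286 FPKM and then 584, 633 and 579.5 FPKM in MATa, and 255, 265 and 262 FPKM and then 567, 620.3 and 594 FPKM in MATα-playing-a cells. COS9 (YKL219W, chrXI:14485-15708), 99.1% unique, went from 149 ± 7.9 to 241 ± 13.4 FPKM in MATa and from 136 ± 5.77 to 238 ± 10.4 FPKM in MATα-playing-a cells (mean ± SD, n = 3); few of its 50-nt words occur elsewhere in the genome. COS10 (YNR075W, chrXIV:779916-781040), wholly unique, was the exception among the tested genes. It read 171, 217 and 182 FPKM and 222, 186 and 197 FPKM in MATa and 146, 222 and 159 FPKM and 157, 168 and 180.4 FPKM in MATα-playing-a cells, overlapping in both strains (limma adjusted p = 0.613 and 0.845, log2 changes 0.09 ± 0.15 and -0.03 ± 0.15). COS12, also wholly unique, was listed at 0 in all 12 libraries. COS2 and COS3 carried equal values and count as 1 measurement.

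The 100 bases before the start codon are shown for 6 COS genes, 5′ to 3′ on the coding strand, from R64. The windows are chrXIV:8230-8329, plus strand for COS1; chrVI:6326-6425, plus strand for COS4; chrVII:1082730-1082829, minus strand for COS6; chrVIII:6301-6400, plus strand for COS8; chrXI:14385-14484, plus strand for COS9 and chrXIV:779816-779915, plus strand for COS10. Capitals mark CCCCT, the stress response element AGGGG read on the other strand.
COS1: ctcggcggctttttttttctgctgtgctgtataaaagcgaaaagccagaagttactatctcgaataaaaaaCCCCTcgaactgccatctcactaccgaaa
COS4: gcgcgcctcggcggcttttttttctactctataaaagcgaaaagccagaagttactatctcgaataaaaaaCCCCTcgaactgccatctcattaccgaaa
COS6: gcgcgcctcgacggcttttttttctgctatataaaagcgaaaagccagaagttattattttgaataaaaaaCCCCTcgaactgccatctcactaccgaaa
COS8: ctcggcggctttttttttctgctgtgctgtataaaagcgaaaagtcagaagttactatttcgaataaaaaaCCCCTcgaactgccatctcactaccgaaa
COS9: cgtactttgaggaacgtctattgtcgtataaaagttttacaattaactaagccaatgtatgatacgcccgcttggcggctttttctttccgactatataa
COS10: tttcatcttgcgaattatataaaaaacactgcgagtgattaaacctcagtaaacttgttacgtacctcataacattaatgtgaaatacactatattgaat
The windows of COS1, COS2 and COS3 were equal in all letters. In COS1 to COS8 the motif began 29 bases before the start codon. COS9, which also rose, had no match upstream in the 250 bases searched and 1 match just inside the coding sequence, and COS10 and COS12 had none in that window. Any part of these sequences in the responses was not tested.

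Vitamin genes near the ends rose as well. The 4 THI5-family genes (THI5, THI11, THI12 and THI13), which make the pyrimidine precursor of thiamine, rose 1.86- to 3.88-fold in MATa and 2.00- to 3.23-fold in MATα-playing-a cells (highest limma adjusted p = 9.54e-05 and 2.25e-05). THI12 (YNL332W, chrXIV:14832-15854) read 10.3, 13.2 and 11.7 FPKM in untreated and 48.3, 49.1 and 47.0 FPKM in treated MATa. MATα-playing-a libraries read 15.7, 14.1 and 13.8 FPKM and 45.3, 55.6 and 46.9 FPKM. Treated libraries were higher throughout, but the 4 genes are 14.99 to 40.04% unique, so their reads were shared. SNZ2 and SNZ3, of vitamin B6 synthesis, rose 1.36- to 1.44-fold in MATa and 1.58- to 1.72-fold in MATα-playing-a cells (highest limma adjusted p = 0.00509 and 0.000320). Their partners SNO2 and SNO3, each beside an SNZ gene, were not called in either strain, with log2 changes of -0.11 to 0.03.

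Most genes of maltose and isomaltose use were not called. Of 9 such members 4 were higher in MATa and 1 in MATα-playing-a cells, and none was lower. One of the 4, MPH3, was not called after quantile normalisation (limma adjusted p = 0.118) or without MATa unstimulated or stimulated replicate 1 or 3 (0.0508 to 0.0849). MAL33 (YBR297W, chrII:800523-801929), the activator of the maltose genes and 94.3% unique, was the one called in both strains, with 86.6, 86.3 and 86.9 FPKM and then 183, 192 and 190.3 FPKM in MATa. MATα-playing-a cells gave 99.3, 108 and 87.2 FPKM and 185, 219 and 219 FPKM, and the groups did not overlap (limma adjusted p = 7.31e-07 and 9.24e-07). The maltase genes MAL12 and MAL32, near-copies 16.4% and 15.9% unique, were higher in MATa (1.59- and 1.59-fold) and not called in MATα-playing-a cells (1.19- and 1.14-fold; limma adjusted p = 0.207 and 0.36). The difference between the strains' responses did not pass the test (limma adjusted p = 0.486 and 0.436). The 3 sorbitol and mannitol dehydrogenase members were higher in both strains, though MAN2 was not called in MATα-playing-a cells after quantile normalisation (limma adjusted p = 0.154) or with a pseudocount of 0.1 (0.0831). SOR1 and SOR2 share nearly all their sequence (4.88% unique) and rose 1.74- and 1.68-fold in MATa. FLO10, a flocculin of cell adhesion, rose 1.63-fold in MATa and 1.51-fold in MATα-playing-a cells, from 26.5 ± 3.19 and 28.5 ± 2.44 FPKM.

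Some families rose from almost nothing. The enolase-related genes ERR1, ERR2 and ERR3 lie at the ends of chromosomes XV, XVI and XIII. ERR1 and ERR2 are equal over all 1314 coding bases and carried equal values, and ERR3 differs from them at 12 bases. A stretch of 90 coding bases (positions 602 to 691 from the A of the start codon; ERR1 at chrXV:1080877-1080966, plus strand; ERR3 at chrXIII:920689-920778, plus strand, R64) shows how few letters separate the copies, with capitals where they differ.
ERR1: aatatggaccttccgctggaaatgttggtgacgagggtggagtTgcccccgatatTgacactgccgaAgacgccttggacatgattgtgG
ERR3: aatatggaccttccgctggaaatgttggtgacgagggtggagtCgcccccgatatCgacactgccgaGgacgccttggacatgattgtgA
ERR1 read 0.891, 0 and 1.64 FPKM in untreated and 6.62, 8.88 and 6.82 FPKM in treated MATa. Its MATα-playing-a values were 1.93, 2.34 and 2.6 FPKM and 10.3, 11.5 and 13.3 FPKM. The treated libraries were higher in both strains (limma adjusted p = 4.40e-04 and 0.00133), on the log2(FPKM + 1) scale, which understates changes at such levels. ERR3 passed more narrowly (limma adjusted p = 0.0324 and 0.0257); without any 1 stimulated MATa replicate or MATa unstimulated replicate 1 or 2 its MATa value was 0.0563 to 0.0871, and without MATα-playing-a unstimulated replicate 1 the other was 0.0675. With a pseudocount of 10 the MATa value of ERR3 was 0.0818, and after quantile normalisation its MATα-playing-a value was 0.193.

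Other families changed little or in single members. All 8 Y′ helicase genes (YRF1) read 2.72 to 7.47 FPKM on average, are under 10% unique, and none was called, with median log2 changes of -0.18 in MATa and -0.51 in MATα-playing-a cells. YRF1-3 read 6.53, 5.63 and 7.21 FPKM and then 4.38, 3.74 and 4.31 FPKM in MATα-playing-a cells, which did not overlap, at a limma adjusted p of 0.106; with a pseudocount of 0.1, no filter on low values or no variance trend the adjusted p was 0.0386, 0.000680 and 0.000606. The seripauperin genes (PAU), cell wall mannoproteins known from anaerobic growth, had a median level of 2.42 FPKM over 19 members. Of the 14 tested, 1 was higher and 2 lower in each strain, the lower ones being PAU12 and PAU24, whose rows overlap others. The higher one in MATa was PAU20, with 0.345, 0.554 and 0.415 FPKM and then 4.91, 3.44 and 2.98 FPKM (limma adjusted p = 0.0252, and 0.0557 to 0.0928 without MATa unstimulated or stimulated replicate 1 and 0.103 after quantile normalisation). The higher one in MATα-playing-a cells was PAU16, listed at 0 in the untreated libraries of both strains and at 7.76, 6.77 and 6.67 FPKM in the treated ones of that strain (limma adjusted p = 0.0114, and 0.174 after quantile normalisation). Of 4 iron and glutathione transport members, the glutathione exchangers GEX1 and GEX2 were higher in both strains by 1.56- to 1.68-fold. After quantile normalisation the limma adjusted p of GEX1 in MATa was 0.0527. The ferric reductase gene FRE2 was not called. ARN2, a siderophore transporter gene whose row overlaps another, varied widely within groups, at 211, 229.9 and 432 FPKM in untreated and 189, 241 and 443 FPKM in treated MATa libraries. Of the 3 arsenic resistance genes at the right end of chromosome XVI, 1 was lower in MATa and none was called in MATα-playing-a cells. This was ARR2, the arsenate reductase, with 59.2, 53.3 and 57.0 FPKM in untreated and 27.4, 47.3 and 37.4 FPKM in treated MATa libraries (limma adjusted p = 0.0146, and 0.0614 without MATa stimulated replicate 1).

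The strains were compared next, always as MATα-playing-a minus MATa. Without pheromone 2 of the 254 tested members were called, both higher in MATα-playing-a cells (0.953% of all tested genes were called, 0.348% higher and 0.605% lower). One was YML131W (chrXIII:10198-11295), an oxidoreductase of the medium-chain dehydrogenase family. Its values were 162, 144 and 139 FPKM in MATa and 250.1, 214 and 233 FPKM in MATα-playing-a cells without pheromone, then 552, 608 and 557 FPKM and 929.7, 968 and 881 FPKM with it. MATα-playing-a libraries lay above the matching MATa ones throughout, 1.56-fold before and 1.62-fold after α-factor (limma adjusted p = 0.00137 and 4.39e-04), and both strains rose, 3.84- and 3.98-fold. Fitted on the unstimulated libraries alone, its limma adjusted p was 0.0854. The other was YCL065W (chrIII:13751-14119), an open reading frame that overlaps the silent gene HMLALPHA1 at HML and is 31.9% unique. It read 22.4, 13.5 and 16 FPKM and, with α-factor, 11.0, 24.6 and 9.74 FPKM in MATa. In MATα-playing-a cells it read 111, 75.02 and 109 FPKM and then 354, 316 and 229 FPKM. The strains did not overlap in either state (limma adjusted p = 0.0019 and 7.42e-06), and the row rose 3.03-fold with α-factor in MATα-playing-a cells (limma adjusted p = 8.34e-04). The α sequence of HML is also present at the expressed MAT locus of an α strain, so reads from the 2 places cannot be told apart in this row.

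With α-factor 17 members differed between the strains, 16 higher and 1 lower in MATα-playing-a cells, against 2.21% of all tested genes (1.56% higher and 0.651% lower). After quantile normalisation the count was 23, with 14 higher and 9 lower, so the balance of directions depends on scaling. Leaving out 1 stimulated library brought the 17 to 8 (MATa replicate 1 or MATα-playing-a replicate 3), 9 (MATα-playing-a replicate 2) or 11 (the other 3), and 6 members were called in all 12 such fits: YCL065W, YML131W, YAR073W, IMD2, YFL057C and MCH2. YFL057C and AAD6 at the left end of chromosome VI were both among the 16, as were AAD10 and YJR154W at the right end of chromosome X; the AAD genes encode putative aryl alcohol dehydrogenases. Without MATα-playing-a stimulated replicate 3 the limma adjusted p of YJR154W was 0.0588, and without any 1 stimulated library that of AAD6 was 0.0540 to 0.111. AAD10 (YJR155W, chrX:727405-728271) read 78.4, 105 and 82.3 FPKM and then 186, 185 and 202 FPKM in MATa. In MATα-playing-a cells it read 85.2, 72.0 and 87.2 FPKM and then 257, 322 and 293 FPKM. It rose in both strains and ended higher in MATα-playing-a cells (limma adjusted p for the strains with α-factor = 0.0279), a call lost without any 1 stimulated MATa replicate or stimulated MATα-playing-a replicate 2 or 3 (0.0614 to 0.136). AAD6 (YFL056C, chrVI:14793-15431) read 99.6, 111 and 130.1 FPKM and 114, 98.5 and 111 FPKM in MATa, overlapping. Its values in MATα-playing-a cells were 89.7, 143 and 117 FPKM and 196, 168 and 189 FPKM, a rise there (limma adjusted p = 0.00195). The test of the difference between those responses was not passed (limma adjusted p = 0.243). Of the 6 AAD members 3 were higher in MATa, and 4 higher and 1 lower in MATα-playing-a cells. The lower one was AAD3 (log2 change -0.21 ± 0.07, limma adjusted p = 0.0252, and 0.0623 to 0.0849 without MATα-playing-a unstimulated or stimulated replicate 1 or 2).

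The IMP dehydrogenase genes were the clearest case of members that fell with α-factor in MATa and were not called in MATα-playing-a cells. IMD2 (YHR216W, chrVIII:554396-555967) encodes the enzyme of the rate-limiting step of GTP synthesis, and YAR073W and YAR075W at the right end of chromosome I are overlapping rows of a broken copy. IMD2 read 514, 805 and 553 FPKM in untreated and 293, 295 and 352 FPKM in treated MATa. In MATα-playing-a cells it read 605, 639.7 and 654 FPKM and 616, 556 and 599 FPKM. Only treated MATa libraries were low, at a 1.96-fold fall (limma adjusted p = 9.67e-05) against 1.07-fold in MATα-playing-a cells (limma adjusted p = 0.543). YAR073W (chrI:227742-228953) read 128, 175 and 133 FPKM and then 73.2, 65.8 and 77.2 FPKM in MATa, and 141, 159.7 and 152 FPKM and then 133, 127 and 126 FPKM in MATα-playing-a cells. With α-factor IMD2 was 1.89-fold and YAR073W 1.78-fold higher in MATα-playing-a than in MATa cells (limma adjusted p = 0.00473 and 0.00152). The 3 rows are 66.3 to 69.4% unique and partly share reads. The difference of the responses themselves did not pass the test for IMD2, YAR073W or YAR075W (limma adjusted p = 0.118, 0.0744 and 0.223).

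That test of the difference of responses called none of the 254 members in limma, against 0.484% of all tested genes (0.409% with the higher and 0.0757% with the lower value in MATα-playing-a cells). At an unadjusted p under 0.05 there were 27 members (10.6%), 24 of them (9.45%) with the higher value in MATα-playing-a cells, against 11.7% and 7.84% of all tested genes. Without MATa unstimulated replicate 1 it called YAR075W and YFL057C, and without MATa stimulated replicate 2 it called YCL065W (limma adjusted p = 0.0424, 0.0198 and 0.0126). With no filter on low values it called PAU19 (limma adjusted p = 0.000563). These 4 names were found after their values had been seen.

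**Figure D5:**
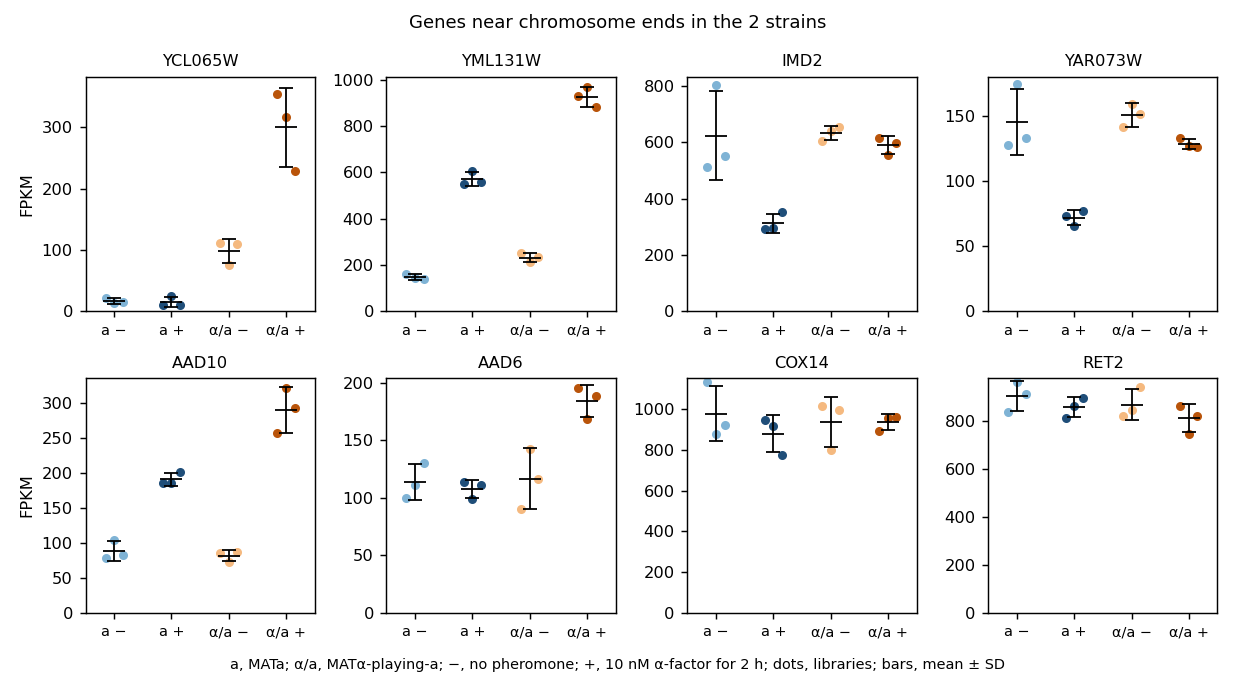
FPKM on linear axes from 0 in each library (dots) with mean ± SD of 3 (black) for 8 members in MATa (a) and MATα-playing-a (α/a) cells without (−) and with (+) 10 nM α-factor for 2 h. YCL065W and YML131W are higher in MATα-playing-a cells in both states, IMD2 and YAR073W are low in treated MATa libraries alone, AAD10 and AAD6 are highest in treated MATα-playing-a libraries, and COX14 and RET2 overlap across all groups.

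The few strongly expressed members had varied roles. ADH6 (YMR318C, chrXIII:911061-912143), an NADPH-dependent alcohol dehydrogenase, had the highest mean of the set, with 1764, 1834 and 1840 FPKM before and 2344, 2113 and 2284 FPKM after α-factor in MATa. It rose slightly, 1.24-fold and in MATα-playing-a cells 1.31-fold (limma adjusted p = 0.00107 and 1.79e-04). DLD3 (YEL071W, chrV:16355-17845), a D-2-hydroxyglutarate and D-lactate dehydrogenase, rose from 1259, 1284 and 1215 to 2536, 2447 and 2622 FPKM in MATa. In MATα-playing-a cells it rose from 1198, 1095 and 1184 to 2026, 2067 and 2166 FPKM. It was the 1 member lower in treated MATα-playing-a than in treated MATa cells (limma adjusted p = 0.0235, and 0.0725 to 0.106 without MATa stimulated replicate 1 or 3 or MATα-playing-a stimulated replicate 1 or 2, and 0.0548 with the compared libraries alone). HYR1, a thiol peroxidase that senses hydrogen peroxide, rose 1.98- and 1.95-fold, and RPN12, a subunit of the proteasome lid, 1.27- and 1.48-fold. COX14, an assembly factor of cytochrome c oxidase, and RET2, a coatomer subunit, overlapped between all groups and were not called. RET2 read 904 ± 62.2, 857 ± 41.8, 868 ± 64.9 and 810.2 ± 58.8 FPKM in the 4 groups (MATa, then MATα-playing-a, each without and with α-factor). IRC7, a cysteine desulfhydrase whose row overlaps another, fell 2.06-fold in MATa (limma adjusted p = 3.66e-04).

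A list of 30 genes for silencing and telomeric chromatin, which lie elsewhere except for RPD3, was read beside the members because its products act at chromosome ends. Of the 30, 19 were lower and 4 higher in MATa, and 18 were lower and 3 higher in MATα-playing-a cells, with median log2 changes of -0.37 and -0.39 against -0.09 and -0.10 over all tested genes. Over all tested genes 38.1% were lower and 28.5% higher in MATa, and 39.1% and 29.8% in MATα-playing-a cells. RAP1, whose protein binds the telomere repeats, read 354, 319.6 and 338 FPKM in untreated and 172, 171 and 193 FPKM in treated MATa. MATα-playing-a libraries had 349, 336 and 357 FPKM and 168, 161 and 163 FPKM. RIF1, which is recruited to telomeres by Rap1, fell 1.88- and 2.18-fold. HTZ1, the histone H2A.Z found at the borders of silent chromatin, fell 2.68- and 2.1-fold, and REB1 1.7- and 2.15-fold (highest limma adjusted p of these 8 values = 1.50e-05). SIR2 fell 1.36-fold in MATa and 1.5-fold in MATα-playing-a cells, and SIR4 1.34- and 1.47-fold (highest limma adjusted p of these 4 values = 0.0126). Others on the list went up. YKU70 rose 1.87- and 1.71-fold (limma adjusted p = 5.53e-06 and 1.71e-05), and SIR1 1.52- and 1.33-fold (limma adjusted p = 7.76e-04 and 0.00829). SIR3 and SUM1 were not called in either strain. RPD3 (YNL330C, chrXIV:18001-19302), a histone deacetylase gene that is itself a member, fell 1.25-fold in MATa (limma adjusted p = 0.00483), from 610.4, 521 and 524 to 457, 427 and 439 FPKM. Any part of these changes in the members' rises was not tested.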

How the data were processed

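The deposited values are FPKM per annotated row, 7126 rows in each of 12 libraries. The authors made them with CASAVA 1.8.2, TopHat 1.1.4 and Cufflinks 0.9.3, per the submitters' processing notes; the genome build is not given in the sources used here. In each library the sum of FPKM times row length was 5.02 to 6.22 times that expected of FPKM, so values are relative. Read depth is unknown, so no counting intervals are given.

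Rows with a mean of at least 1 FPKM (6608) were fitted as log2(FPKM + 1) on 4 group means with limma 3.58.1 in R 4.3.3, with a variance trend and Benjamini-Hochberg adjustment. Fold changes are on that scale. On data simulated for the MATa response with 6608 genes, 63.8% of changes of 0.5 and 92.2% of changes of 1 (log2) were recovered. Only a small share of those genes was changed, and none at the lowest levels. These rates therefore do not cover low members, and may not hold in the real data, where most genes were called. Uniqueness and sequences came from RefSeq R64.

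Genes were named for the largest changes in each comparison or as the 8 with the highest mean. Up to 4 were named per family and from the silencing list. The largest changes were taken among called members of at least 200 nt without overlap between groups. These also had a mean of at least 10 FPKM in a compared group. Others were named to complete a family or pair after their values were seen. The members and lists were chosen with earlier results of these data known.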

Additional observations from a re-analysis of the deposited data

How the results depend on the processing

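The 139 named-gene results gave 3162 values over the alternatives, of which 3054 kept direction and call, 68 lost and 40 gained the call, and none reversed. Within 10 kb, 46 and 51 members were called in the MATa and MATα-playing-a responses, 0 and 5 differed between strains without and with α-factor, and the level difference was -4.04. The rows tested there were 52 within 5 kb and 68 at 5 to 10 kb. Over all tested genes the responses called 66.6% and 68.9%, the strain comparisons 0.953% and 2.21%, and the difference of responses 0.484%. No share is given for the 30 kb counts. Within 30 kb the responses called 223 and 227, the unstimulated strain comparison 5 and the difference of responses 1, with a level difference of -2.12. With members of at least 90% unique sequence alone, chosen after seeing the data, the counts were 64, 65, 1 and 10 of 99 tested and the level difference was -1.09. These counts come from the main fit, and fewer or more members were counted by construction. Using the compared libraries alone gave 1 and 9 strain differences without and with α-factor. Leaving out overlapping rows, or rows not matched to R64, left 1 unstimulated strain difference and level differences of -2.20 and -2.21. With no filter the difference of responses called 1, and with a pseudocount of 10 the level difference was -2.46; the cause was not tested. Leaving out 1 library gave 110 to 128 and 117 to 135 response calls, 2 in each fit and 8 to 17 strain differences, 0 to 2 differences of responses, and levels of -2.81 to -2.76.

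Same-numbered libraries did not deviate together (r from -0.278 to 0.27 over 18 pairs, with 4 of 12 libraries closest to their own number), so numbers were not treated as pairs. With the replicate block the counts were 123 and 128 for the responses, 2 and 12 for the strains and 0 for the difference, and with a block by culture the responses called 119 and 130 and their difference 0. Under the block by culture ARN2 was called in MATα-playing-a cells (limma adjusted p = 0.0300), and PAU20 in MATa (0.0657) and ERR3 in MATa and MATα-playing-a cells (0.0823 and 0.0697) were not. Under the replicate block by number ERR3 in MATa (0.0572) and the strain difference of DLD3 (0.0501) were not called. Median-ratio rescaling moved the median change of all genes by 0.09 and 0.10, to -0.005 and -0.004. The depth of the libraries is unknown, and low rows are limited most.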

Other observations

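Counts by chromosome end are given for 4 of the 32 ends, picked after their values were seen; a difference between ends was not tested, and some rows share reads. Over all tested genes 28.5% were higher and 38.1% lower in MATa, and 29.8% and 39.1% in MATα-playing-a cells. At the right end of chromosome X, 7 of 8 tested members were higher in MATa and 6 in MATα-playing-a cells, and none was lower. At the left end of chromosome IV all 9 members were tested, 6 were higher in each strain and none was lower. At the right end of chromosome I, none of 10 tested members was higher, while 3 were lower in MATa and 1 in MATα-playing-a cells. At the right end of chromosome VIII, none of 9 was higher, and 2 and 3 were lower.

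The rows inside the same width that were left out of the set read higher than most members. PHO11 and PHO12, acid phosphatase genes, had means over the 12 libraries of 678 and 788 FPKM, and PHO89, a phosphate transporter gene, 789.8 FPKM. HXK1, a hexokinase gene, had 768 FPKM and MMP1, an S-methylmethionine permease gene, 236 FPKM.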
